A study of Homo sapiens with 30 samples.

Results

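The genes described here are 59 sensors, signal factors and effectors of the interferon response, taken from a fixed list by their symbols in the RNA-seq and PRO-seq tables. Of these, 52 had an entry among the 18132 entries of the RNA-seq table, and 40 passed the filter on low counts, among 13401 entries tested in all. All 59 had an entry in the PRO-seq table, where 26 could be tested in gene bodies and 21 in promoter-proximal regions. The 7 genes not analysed in RNA-seq were MX1, OAS1, IFI44, IFI44L, SAMD9, SAMD9L and PSMB8. A further 12 had at most 19 counts in any RNA-seq library and were not tested, namely APOL1, APOL6, PSMB9 (entries on alternative haplotype sequences only), OAS2, OASL, GBP2, XAF1, DHX58, IFIH1, MB21D1, TLR3 and SP100. The tested members had to reach a count minimum, so counts and medians over them do not speak for all 59.

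Cells recognise foreign or misplaced nucleic acids through receptors in the cytoplasm and endosomes. DDX58 (RIG-I) and IFIH1 (MDA5) bind double-stranded RNA and signal through MAVS, whereas MB21D1 (cGAS) detects DNA and signals through TMEM173 (STING). Both routes activate IRF3 and IRF7, which switch on interferon genes, and secreted interferon then acts through JAK kinases on a complex that holds STAT2 and IRF9. That complex binds the interferon-stimulated response element and raises the effectors, such as the IFIT, OAS, IFITM and ISG15 proteins, which block viral RNA, entry and assembly.

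The cells were G401, an established line from a malignant rhabdoid tumour of the kidney, a cancer defined by loss of SMARCB1. The study compared parental G401 cells with a derivative called DTMYC, in which a lentivirus supplied MYC carrying an N-terminal HA-FKBP12F36V tag and CRISPR-Cas9 had removed the endogenous MYC gene. The compound dTAG47 recruits a ubiquitin ligase to any protein with such a tag, so that the protein is destroyed, and the design asks what follows the loss of MYC. For RNA-seq, harvested at 24 h, there were 4 groups with 3 libraries each, namely parental cells in DMSO, parental cells in 500 nM dTAG47, DTMYC cells in DMSO and DTMYC cells in 500 nM dTAG47. The other assays used DTMYC cells only, in DMSO or 500 nM dTAG47. These were PRO-seq at 4 h (2 libraries per group), which counts engaged RNA polymerase, ATAC-seq at 24 h (3 per group), which maps open chromatin, and MYC ChIP-seq at 4 h (2 in DMSO and 3 in dTAG47). The sources used here name neither the promoter that drives the tagged MYC nor whether DTMYC is a single clone, and the labels do not say that replicates were separate cultures. The p-values therefore measure the spread between these libraries, which may be technical. In bulk samples, fewer cells of a kind and less RNA per cell cannot be told apart.

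RNA-seq libraries held 27854207 to 54633745 counts, PRO-seq libraries 18209879 to 23256313 counts in gene bodies and 1216928 to 1632084 in promoter-proximal regions. SMARCB1 had 0 or 2 gene body counts in the PRO-seq libraries. MYC mRNA stood at 1329 to 1478 CPM (counts scaled to a common effective library size) in DTMYC cells and 215 to 267 in parental cells, and since dTAG47 acts on the protein, this level does not check the treatment. The MYC ChIP-seq peak lists held 4010 and 1519 peaks in DMSO and 7 to 408 in dTAG47. Of 8 blood cell markers with an entry, 5 stayed under 10 counts in every library, among them PTPRC, CD3E and MS4A1 with at most 1. The highest count of the 8 was 47, and their summed level was 0.674 to 1.73 CPM. The third parental DMSO library stood apart. Its log2 CPM differed from those of the other parental DMSO libraries by a median of 0.336 and 0.379, against 0.0682 to 0.133 within all other pairs of a group. Of the 40 tested members, 7 were above 1.5 times both other libraries there (DDX58, DTX3L, EIF2AK2, IFIT2, IFIT3, PARP14 and PARP9), a share of 17.5% against 18.4% of all tested entries. For the contrasts that use this library, counts of members past the threshold are given with and without it. Values of single genes and of the wider list come from the fit with it unless stated.

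Most of the 40 tested members were lower in DTMYC than in parental cells, before any dTAG47 was added. This did not hold for the wider list of pathway genes given further on. In DMSO, 28 of the 40 tested members were lower and 4 were higher by edgeR's quasi-likelihood test at an adjusted p of 0.05, where 37.3% of all tested entries were lower and 36.0% higher. The median log2 difference of the members was -1.36, against 0.00 for all entries, and it stayed at -1.36 when genes with no count in DTMYC cells were set to the bound given below. Among effectors 25 of 32 were lower and 3 higher, among signal factors 2 of 5 were lower and 1 higher, and among sensors and adaptors 1 of 3 was lower. The direction of 6 of the 28, all of them effectors, was set by the filter. IFIT1, IFIT2, IFIT3, IFIT5, OAS3 and PARP9 passed it only through the parental libraries. Of the other 34 tested members 22 were lower and 4 higher, with a median of -1.09. By role, the lower ones included 5 of 5 tested ISG15-conjugation genes and 4 of 4 membrane restriction factors. This contrast differs in the line as a whole and not in MYC alone, so the engineering steps and the source of MYC cannot be told apart here. Without the third parental DMSO library 36 of 40 members passed the threshold in this contrast, where 81.4% of all entries did.

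The IFIT genes encode proteins that bind viral RNA, and their mRNA was at or near 0 counts in DTMYC cells. IFIT1, the most abundant of the family per exon length, had 5.87, 5.09 and 8.16 CPM in parental DMSO libraries and 0.0910, 0.0684 and 0.0574 CPM in DTMYC DMSO libraries. The log2 difference was -6.40 ± 0.32 (SE), resting on 7 DTMYC counts against 753 parental counts. IFIT1 passed the filter only through parental libraries, so no p-value is given. IFIT2, IFIT3 and IFIT5 had no count in any DTMYC DMSO library, against 170, 79 and 142 summed counts in the parental DMSO libraries. Taking a floor of 3 counts over the 3 DTMYC libraries, they were at least 46.2-fold, 21.5-fold and 38.6-fold lower. IFIT2 and IFIT3 also had no count in any DTMYC dTAG47 library, where they were at least 57.7-fold and 22.6-fold below parental cells in dTAG47. IFIT5 had 4 counts over those 3 libraries. Such bounds, and the interval given further on, reflect counting error alone.

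The membrane restriction factors of the IFITM family, which block virus entry, followed. IFITM2 had 34.9, 34.5 and 22.7 CPM in parental DMSO libraries and 0.728, 0.308 and 0.516 CPM in DTMYC DMSO libraries. IFITM3 had 139, 151 and 115 CPM against 13.4, 12.6 and 13.8 CPM. Neither pair of groups overlapped, with log2 differences of -5.86 ± 0.27 (edgeR adjusted p = 1.34e-09) for IFITM2 and -3.35 ± 0.11 (edgeR adjusted p = 6.95e-11) for IFITM3. These genes are near-identical copies side by side on chromosome 11, and the IFITM2 entry (307631 to 315272, hg19) overlaps the IFITM1 entry (313506 to 315272), so the split of reads among them is uncertain. BST2, which tethers budding virions, was the most abundant effector of this group per exon length. It had 563, 487 and 391 CPM in parental DMSO libraries and 203, 183 and 205 CPM in DTMYC DMSO libraries, a log2 difference of -1.29 ± 0.11 (edgeR adjusted p = 4.05e-07).

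HERC5, the ligase that attaches ISG15 to new proteins, had 18.51, 15.02 and 22.62 CPM in parental DMSO libraries and 0.758, 0.513 and 0.947 CPM in DTMYC DMSO libraries. Its log2 difference was -4.64 ± 0.20 (edgeR adjusted p = 9.63e-10). ISG15 itself, a ubiquitin-like modifier, remained abundant in both lines. It had 220, 152 and 128 CPM in parental DMSO libraries and 80.8, 67.3 and 84.5 CPM in DTMYC DMSO libraries, without overlap, a log2 difference of -1.10 ± 0.16 (edgeR adjusted p = 5.11e-05). TRIM21, a cytosolic antibody receptor, had 10.9, 11.8 and 9.80 CPM against 1.21, 1.61 and 1.66 CPM, a log2 difference of -2.85 ± 0.15 (edgeR adjusted p = 5.55e-09). OAS3, which makes the RNase L activator 2-5A, stood at 4.89 to 6.88 CPM in parental DMSO libraries and 0.103 to 0.303 CPM in DTMYC DMSO libraries (log2 difference -5.11 ± 0.27). The filter set its direction, so no p-value is given. PSMB10, the only tested subunit of the immunoproteasome, had 5.71, 6.32 and 4.94 CPM in parental DMSO libraries and 2.37, 2.94 and 2.78 CPM in DTMYC DMSO libraries (log2 difference -1.07 ± 0.16, edgeR adjusted p = 5.96e-05).

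The RNA-acting enzymes went the other way or did not pass the threshold. ISG20, a 3′ exonuclease, had 4.85, 4.37 and 3.33 CPM in parental DMSO libraries and 10.4, 8.20 and 9.47 CPM in DTMYC DMSO libraries, a log2 difference of 1.16 ± 0.14 (edgeR adjusted p = 9.39e-06). EIF2AK2, the kinase PKR that halts translation on double-stranded RNA, had 22.5, 22.1 and 51.8 CPM in parental DMSO libraries and 61.0, 71.2 and 62.5 CPM in DTMYC DMSO libraries. The third parental library lay at more than 1.5 times the other 2 but below every DTMYC library, and the log2 difference was 1.01 ± 0.26 (edgeR adjusted p = 0.00389), or 1.53 without that library. ADAR, which edits double-stranded RNA and was the most abundant RNA-acting enzyme per exon length, stood at 581 to 615 CPM in parental and 578 to 597 CPM in DTMYC DMSO libraries (log2 difference -0.02 ± 0.06, edgeR adjusted p = 0.738). TRIM22, at 0.410 to 0.516 CPM in DTMYC and 0.186 to 0.312 CPM in parental DMSO libraries, and IRF7, with overlapping groups, were also higher in DTMYC cells, by 0.94 and 0.56 on the log2 scale.

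**Figure D1:**
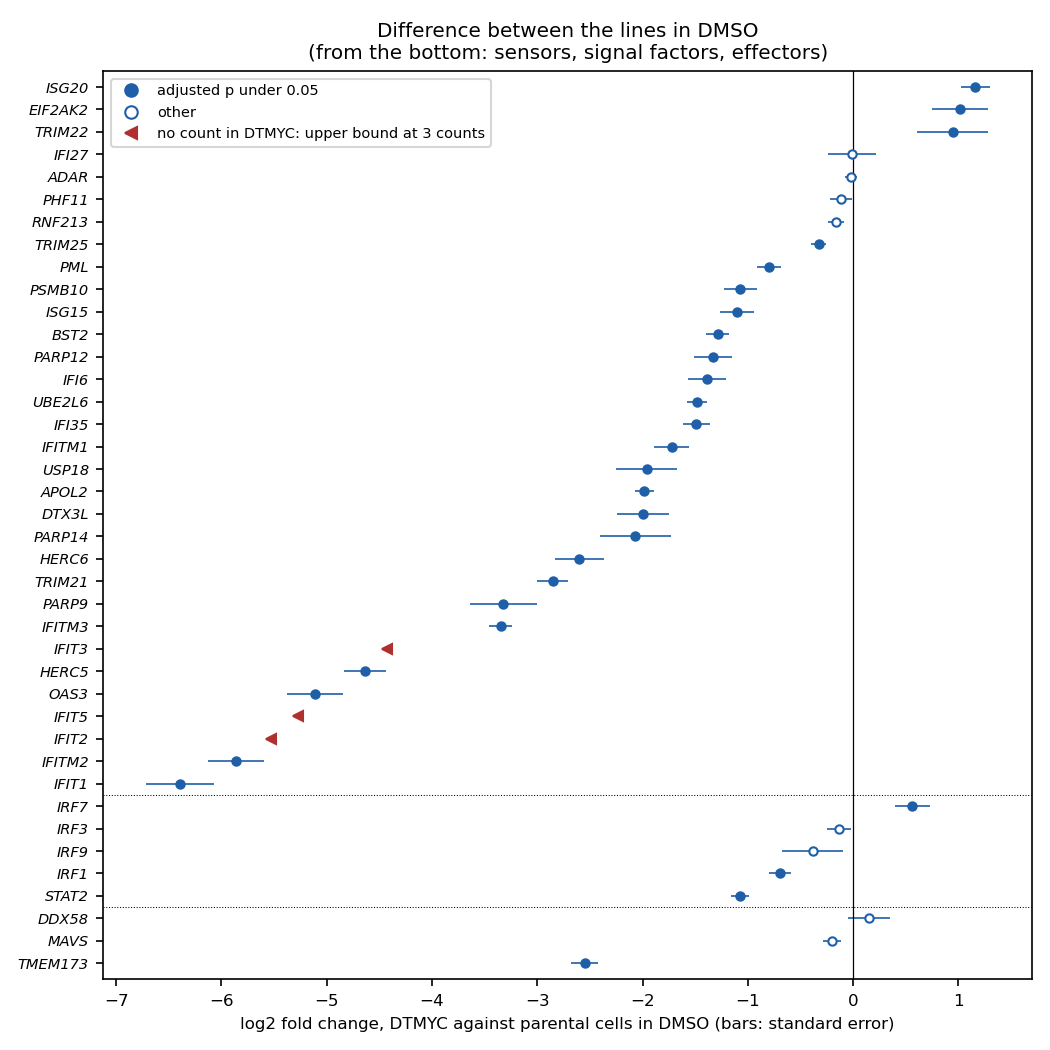
Log2 fold change of RNA-seq counts between DTMYC and parental cells in DMSO for the 40 tested members (horizontal axis), grouped into sensors, signal factors and effectors, with bars for the standard error of the edgeR fit. Filled points have an adjusted p under 0.05, and triangles mark IFIT2, IFIT3 and IFIT5, which had no count in DTMYC DMSO libraries and are drawn at their bound; 28 members lie lower and 4 higher past the threshold.

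Between the lines in dTAG47, 29 members were lower and 3 higher in DTMYC cells, against 38.9% and 37.4% of all tested entries. Leaving aside the 6 that passed the filter only through parental libraries, 23 of 34 were lower, with a median of -0.68. Among those 34, IFITM2 (-5.65), HERC5 (-4.24) and IFITM3 (-3.27) had the lowest values, and the higher ones were EIF2AK2 (1.45), DDX58 (1.31) and ISG20 (1.17). The comparisons in DMSO and in dTAG47 use different libraries of the same lines.

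Promoter sequences of the members were searched for the element of the interferon response. The members were listed as interferon-response genes, so a share above that of all promoters follows from the list. The RefSeq promoter table (GRCh38.p14, 250 bases before to 50 after a gene's start) held 42 of the 59 members. The interferon-stimulated response element core, searched as GAAA, any 2 bases and GAAA again on both strands with overlaps allowed, occurred in 24 of these (57.1%) and in 3.57% of 35116 RefSeq promoters. It is the element that the complex with STAT2 and IRF9 binds, but a match is only a match of letters. Of the 18 tested members with a match, 15 were lower and 2 higher in DTMYC than in parental cells in DMSO, with a median of -1.86. Of the 12 tested members without one, 7 were lower and none higher, with a median of -0.54. The 18 include IFIT1, IFIT3, IFIT5 and OAS3, and the 12 include PARP9, whose direction the filter set, and the difference was not tested. Members without an entry were TMEM173, MB21D1, DHX58, IRF3, IRF7, IFIT2, OAS2, OASL, IFITM2, TRIM22, USP18, GBP2, APOL1, APOL2, APOL6, PHF11 and PML.

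The 160 bases before the start are shown 5′ to 3′ for 4 effectors that were lower in DTMYC cells, with matches to the core on either strand in capitals. They were chosen after their values were seen. IFIT1 (chr10:89392463-89392622 on the plus strand) holds 2 matches, as do IFIT3 (chr10:89327837-89327996 on the plus strand), ISG15 (chr1:1013337-1013496 on the plus strand) and IFITM3 (chr11:320861-321020 on the minus strand). In ISG15 the matches overlap and form 1 capital run.
IFIT1: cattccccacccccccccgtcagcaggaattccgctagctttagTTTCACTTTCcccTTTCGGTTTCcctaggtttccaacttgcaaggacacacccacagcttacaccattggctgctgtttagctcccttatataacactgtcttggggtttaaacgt
IFIT3: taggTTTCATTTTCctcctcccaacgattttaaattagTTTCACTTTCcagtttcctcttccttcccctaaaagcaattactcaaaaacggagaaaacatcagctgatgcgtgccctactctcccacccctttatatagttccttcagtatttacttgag
ISG15: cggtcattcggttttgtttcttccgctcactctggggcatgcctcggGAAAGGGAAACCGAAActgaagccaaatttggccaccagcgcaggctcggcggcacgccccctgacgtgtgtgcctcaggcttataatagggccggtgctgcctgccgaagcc
IFITM3: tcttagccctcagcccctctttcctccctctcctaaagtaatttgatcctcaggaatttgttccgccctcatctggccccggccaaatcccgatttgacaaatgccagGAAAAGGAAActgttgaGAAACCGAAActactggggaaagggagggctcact

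The same stretch is shown for STAT2 (chr12:56360108-56360267 on the minus strand) and UBE2L6 (chr11:57567936-57568095 on the minus strand), which rose after dTAG47 in DTMYC cells as described next. They too were lower in DTMYC than in parental cells in DMSO, by -1.08 and -1.49 on the log2 scale, and were chosen after their values were seen. Neither holds the core, so neither has capitals.
STAT2: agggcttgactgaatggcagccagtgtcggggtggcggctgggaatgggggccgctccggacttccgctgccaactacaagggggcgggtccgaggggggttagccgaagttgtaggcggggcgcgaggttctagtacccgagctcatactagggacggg
UBE2L6: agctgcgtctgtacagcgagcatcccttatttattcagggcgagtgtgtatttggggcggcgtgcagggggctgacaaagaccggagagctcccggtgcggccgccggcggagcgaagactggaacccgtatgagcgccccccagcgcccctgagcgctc

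A small set of these genes had higher mRNA in DTMYC cells after 24 h of dTAG47. Of the 40 tested members 8 rose and none fell, where 4.27% of all tested entries rose and 4.44% fell (edgeR adjusted p under 0.05). They comprised 2 of 3 sensors and adaptors (TMEM173 and DDX58), 2 of 5 signal factors (STAT2 and IRF1) and 4 of 32 effectors (APOL2, IFI35, UBE2L6 and RNF213). The median log2 change of the 40 was 0.33, or 0.35 without IFIT2, IFIT3 and IFIT5, against 0.03 for all tested entries. Of the 40, 32 had a positive value and 15 an unadjusted p under 0.05. Of the 18 tested members with a response element core in the promoter window none rose, and of the 12 without one 6 rose, but their medians were close, at 0.33 and 0.38. The difference was not tested, and the 18 include IFIT3 and IFIT5, which had no DTMYC DMSO count. TMEM173 and APOL2 had no entry in the promoter table.

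TMEM173 (STING, chromosome 5, 138855119 to 138862520 in hg19) carries the DNA-sensing signal from the endoplasmic reticulum. It had 1.18, 1.03 and 0.918 CPM in DTMYC DMSO libraries and 3.14, 3.21 and 3.37 CPM after dTAG47. Every treated library was above every DMSO library, and the log2 change was 1.63 ± 0.13 (edgeR adjusted p = 0.000194). DDX58 (RIG-I, chromosome 9, 32455300 to 32526322) had 10.0, 12.1 and 9.72 CPM in DMSO and 18.0, 17.4 and 17.9 CPM after dTAG47, again without overlap, a change of 0.75 ± 0.20 (edgeR adjusted p = 0.037). MAVS, the most abundant adaptor per exon length (24.7 ± 0.27 RPKM, which is CPM divided by exon length in kilobases, SD, n = 3, in DTMYC DMSO), had 105, 103 and 105 CPM in DMSO and 124, 116 and 112 CPM after dTAG47. Its groups did not overlap, but the change of 0.16 ± 0.09 did not pass the threshold (edgeR adjusted p = 0.296). MB21D1 (cGAS), the enzyme that activates STING, was too low to test, at 0.0287 to 0.242 CPM in DTMYC libraries.

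Among the signal factors, STAT2 (chromosome 12, 56735381 to 56753939), which is specific to interferon signalling, had 19.9, 18.5 and 18.8 CPM in DTMYC DMSO libraries and 30.1, 31.3 and 28.8 CPM after dTAG47. The groups were well apart, with a log2 change of 0.66 ± 0.08 (edgeR adjusted p = 0.00154). IRF1 (chromosome 5, 131817301 to 131826490), a transcription factor that is itself interferon-induced, had 8.22, 7.21 and 7.69 CPM in DMSO and 10.6, 9.85 and 9.37 CPM after dTAG47. Its change of 0.36 ± 0.10 lay just inside the threshold (edgeR adjusted p = 0.0493) and was outside it with RLE size factors (0.0665), without the filter on low counts (0.0948) and with DESeq2 (0.0523). IRF3, the most abundant signal factor per exon length, had 51.2, 43.8 and 52.0 CPM in DMSO and 44.2, 47.7 and 43.9 CPM after dTAG47, with overlapping groups (log2 -0.12 ± 0.12, edgeR adjusted p = 0.618).

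Of the effectors, APOL2 (chromosome 22, 36622256 to 36636000), an interferon-inducible apolipoprotein L, had 7.46, 6.43 and 6.08 CPM in DTMYC DMSO libraries and 13.2, 13.3 and 12.9 CPM after dTAG47, a log2 change of 0.98 ± 0.09 (edgeR adjusted p = 0.000278). IFI35 (chromosome 17, 41158742 to 41166473) had 13.3, 10.6 and 12.8 CPM in DMSO and 17.5, 19.3 and 18.1 CPM after dTAG47, a change of 0.58 ± 0.13 (edgeR adjusted p = 0.0206). In both, all treated libraries lay above all DMSO libraries. UBE2L6 (chromosome 11, 57319129 to 57335757), the E2 enzyme of ISG15 conjugation, had 20.3, 18.9 and 20.1 CPM in DMSO and 26.8, 27.3 and 26.8 CPM after dTAG47, a change of 0.45 ± 0.10 (edgeR adjusted p = 0.0149). RNF213 (chromosome 17, 78234665 to 78372586), a large ubiquitin ligase with antimicrobial activity, had 201, 185 and 199 CPM in DMSO and 255, 264 and 246 CPM after dTAG47, a change of 0.39 ± 0.07 (edgeR adjusted p = 0.0095). Neither gene had overlapping groups.

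The abundant classical effectors did not pass the threshold in DTMYC cells. ISG15 had 80.8, 67.3 and 84.5 CPM in DMSO and 99.9, 95.6 and 101 CPM after dTAG47 (log2 0.35 ± 0.16, edgeR adjusted p = 0.206). BST2 stood at 183 to 205 CPM in DMSO and 198 to 204 CPM after dTAG47, IFITM3 at 12.6 to 13.8 and 13.01 to 14.12 CPM, and ADAR at 578 to 597 and 586 to 616 CPM. IFI6, an interferon-induced mitochondrial and membrane protein, had 12.3, 10.7 and 11.4 CPM in DMSO and 17.5, 17.2 and 16.7 CPM after dTAG47, with no overlap (log2 0.58 ± 0.18, edgeR adjusted p = 0.0635). PARP14, a mono-ADP-ribosyltransferase, had 3.52, 3.86 and 3.99 CPM in DMSO and 6.18, 6.10 and 6.24 CPM after dTAG47, also without overlap (log2 0.70 ± 0.35, edgeR adjusted p = 0.25). TRIM25, the ubiquitin ligase that aids RIG-I, had 56.2, 59.2 and 59.7 CPM in DMSO and 49.7, 50.6 and 49.7 CPM after dTAG47 (log2 -0.22 ± 0.07, edgeR adjusted p = 0.0639). In all, 20 of the 40 members had groups that did not overlap, against 45.2% of all tested entries.

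The number of calls changed with the libraries fitted, over all entries as well as over the members. Without the third parental DMSO library 14 of 40 members (35%) passed in DTMYC cells, where 29.2% of all entries did, namely the same 8 plus DTX3L (0.56), IFI6 (0.55), ISG15 (0.31), PARP14 (0.67) and PARP9 (1.20), which rose, and TRIM25 (-0.26), which fell. With only the 6 DTMYC libraries fitted, 14 of 34 also passed, where 36.5% of all entries did, with IFITM1 (-0.29) in place of PARP9. Leaving out any 1 of the 6 DTMYC libraries left 3 or 4 members (7.32% to 10%), where 2.42% to 4.68% of all entries passed. TMEM173, APOL2 and STAT2 passed under every alternative tried, and RNF213 under all but the one without DTMYC dTAG47 library 2.

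**Figure D2:**
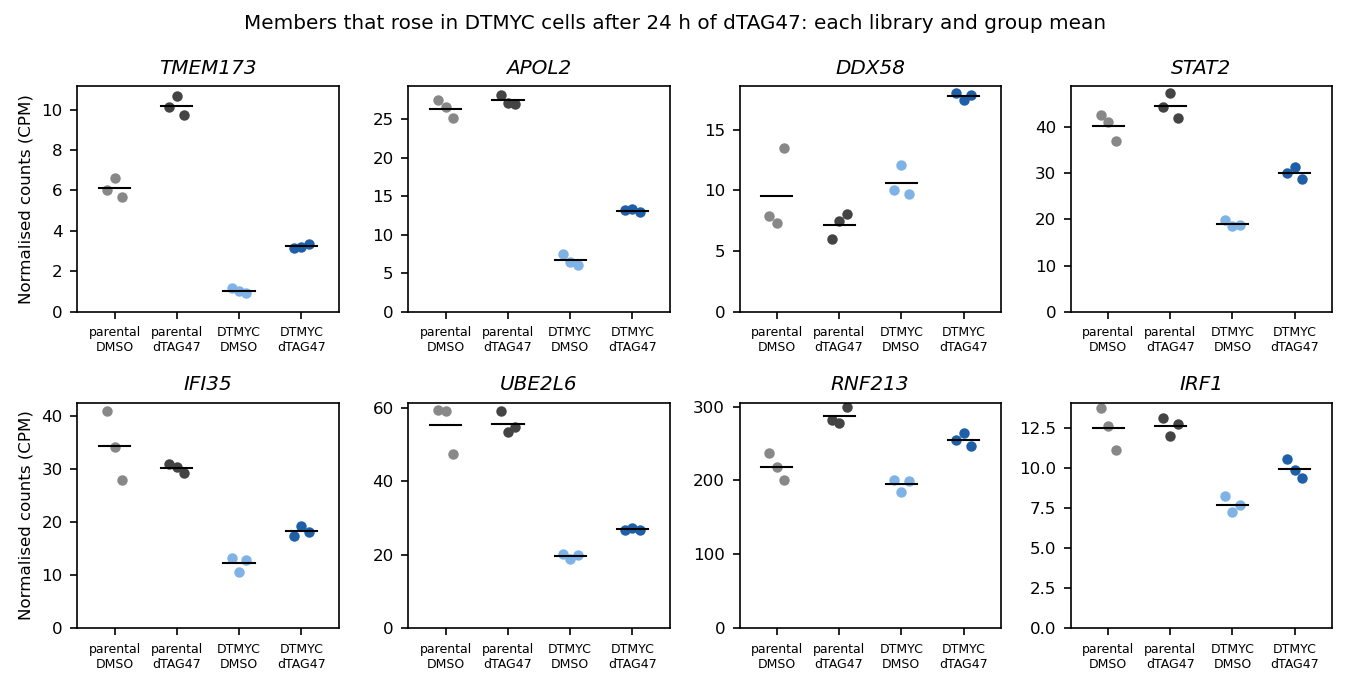
RNA-seq level in CPM (vertical axis, from 0) of the 8 members that rose in DTMYC cells after dTAG47, with 1 point per library and a line at the mean of each group. In DTMYC cells every dTAG47 library lies above every DMSO library for each of the 8 genes, and for 7 of them, all but DDX58, both DTMYC groups have a lower mean than the parental group of the same treatment.

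Parental cells, whose MYC carries no tag, received the same dTAG47. Only TMEM173 rose there and no member fell, where 0.104% of all tested entries rose and 0.0224% fell, and 10 members had an unadjusted p under 0.05. TMEM173 had 6.03, 6.63 and 5.67 CPM in parental DMSO libraries and 10.1, 10.7 and 9.72 CPM after dTAG47, a log2 change of 0.74 ± 0.10 (edgeR adjusted p = 0.0224). It lost the threshold when only the 6 parental libraries were fitted (edgeR adjusted p = 0.715), although the groups did not overlap. Leaving out 1 library at a time, it stayed past the threshold only without DTMYC DMSO library 1 or 3 or parental DMSO library 2 or 3. RNF213 had 237, 218 and 200 CPM in parental DMSO and 282, 278 and 300 CPM after dTAG47, a change of 0.39 ± 0.07 just outside the threshold (edgeR adjusted p = 0.0532). The median of the members was 0.02, against -0.05 for all tested entries. Without the third parental DMSO library 11 of 40 members (27.5%) passed in parental cells, where 20.1% of all entries did. BST2 (-0.33), HERC5 (-0.53), IFI35 (-0.32), IFI6 (-0.50), IRF3 (-0.34) and ISG15 (-0.58) fell, and DTX3L (0.51), IFIT2 (0.73), IFITM1 (0.41), RNF213 (0.33) and TMEM173 (0.68) rose.

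The difference between the responses of the lines was tested as an interaction. It passed the threshold for 2 members, APOL2 at 0.92 ± 0.13 (edgeR adjusted p = 0.00848) and TMEM173 at 0.90 ± 0.17 (edgeR adjusted p = 0.0351), both larger in DTMYC cells, where 0.597% of all tested entries were higher and 0.59% lower. APOL2 stood at 25.1 to 27.4 CPM in parental DMSO and 27.0 to 28.2 CPM in parental dTAG47 libraries, with overlapping groups. STAT2 followed outside the threshold at 0.51 ± 0.12 (edgeR adjusted p = 0.0602), then IFI35 at 0.76 ± 0.18 (0.0669) and DDX58 at 1.16 ± 0.28 (0.0685). DDX58 stood at 7.89, 7.30 and 13.5 CPM in parental DMSO and 6.02, 7.48 and 8.08 CPM in parental dTAG47 libraries. For RNF213 the difference was -0.01 ± 0.11 (0.982). The median difference over the members was 0.37, against 0.08 for all tested entries. TMEM173 was outside the threshold with RLE size factors (0.0536) and without any 1 of the 6 DTMYC or 3 parental dTAG47 libraries, and APOL2 without parental dTAG47 library 2 (0.0562). Without the third parental DMSO library the difference passed for 13 of 40 members, where 17.9% of all entries passed, 11 higher in DTMYC cells and IFITM1 and TRIM25 lower.

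PRO-seq asks whether polymerase on these genes differed as early as 4 h after dTAG47 was added. No member passed the threshold in gene bodies or promoter-proximal regions, and nor did any other gene (0.0% of 13397 and 0.0% of 10226 by edgeR without a replicate block). A replicate block changed these calls, as given in the section on processing. At an unadjusted p under 0.05 there were 3 of 26 members and 1298 of all genes in gene bodies, and 4 of 21 members and 661 of all genes in promoter-proximal regions. DESeq2 called 67 and 2 genes, none of them members. The median log2 change of the members was 0.17 in gene bodies (19 of 26 positive) and 0.20 in promoter-proximal regions (14 of 21), against 0.02 and 0.01 for all genes.

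STAT2 had 16.8 and 14.2 gene body CPM in DMSO and 25.5 and 23.1 CPM after dTAG47, a log2 change of 0.64 ± 0.15 (edgeR adjusted p = 0.421). Its promoter-proximal signal was 68.3 and 89.4 CPM in DMSO and 111 and 126 CPM after dTAG47 (0.59 ± 0.21, edgeR adjusted p = 0.661). The groups did not overlap in either region. DDX58 had 26.1 and 20.9 gene body CPM in DMSO and 33.5 and 35.2 CPM after dTAG47 (0.55 ± 0.14, edgeR adjusted p = 0.43). PSMB10 had 13.4 and 13.1 gene body CPM against 7.57 and 10.8 CPM (-0.54 ± 0.22, edgeR adjusted p = 0.514). These groups too did not overlap, as for 39.9% of all genes tested in gene bodies. In promoter-proximal regions RNF213 had 44.3 and 39.5 CPM in DMSO and 84.4 and 76.4 CPM after dTAG47 (0.94 ± 0.22, edgeR adjusted p = 0.594). PHF11 had 36.7 and 29.8 CPM against 71.2 and 63.4 CPM (1.01 ± 0.24, edgeR adjusted p = 0.594). Both lay apart without passing, as did 35.5% of all genes tested there.

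TMEM173, with the largest rise in mRNA, had too few polymerase counts to test, namely 5 and 4 gene body counts in DMSO and 9 and 8 after dTAG47. APOL2 had 120 and 123 counts in DMSO and 134 and 142 after dTAG47 (log2 0.31 ± 0.23, edgeR adjusted p = 0.718). Polymerase was likewise scarce on the IFIT genes, HERC5 and OAS3, whose mRNA was low in DTMYC cells. IFIT2 and IFIT5 had no gene body count in any of the 4 libraries, and IFIT1 and IFIT3 had at most 1 in a library. In all, 9 members had no gene body count in any library, among them MX1, OAS1, SAMD9, SAMD9L and PSMB8. HERC5 had 2 to 7 counts in a library and OAS3 1 to 7.

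**Figure D3:**
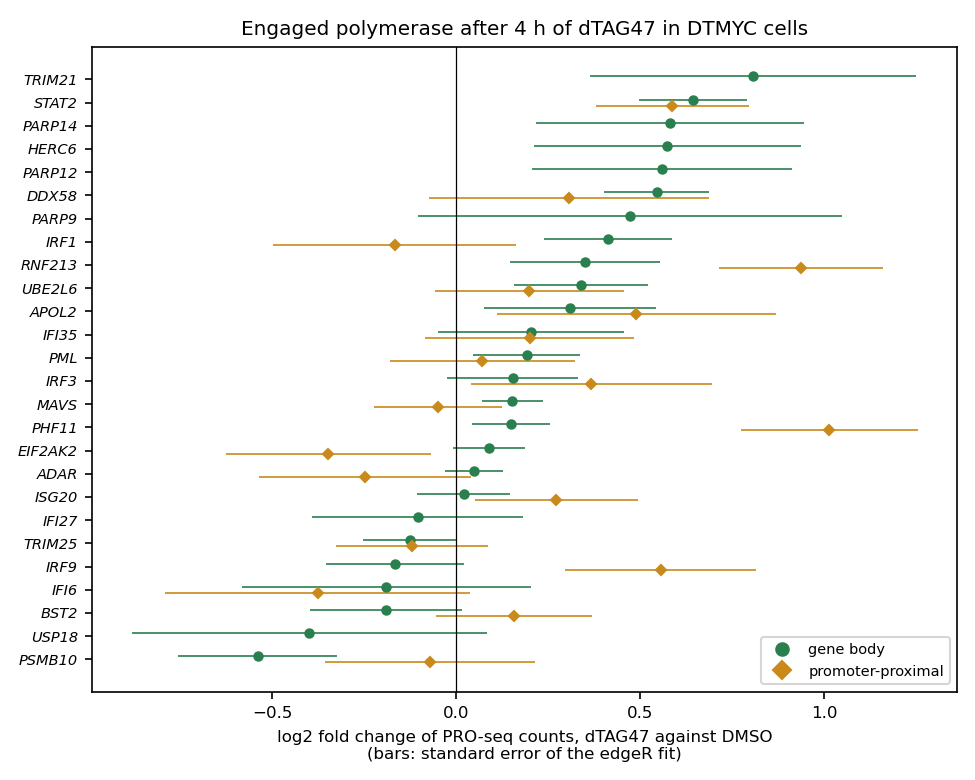
Log2 fold change of PRO-seq counts after 4 h of dTAG47 in DTMYC cells (horizontal axis) for the 26 members tested in gene bodies (circles) and the 21 tested in promoter-proximal regions (diamonds, where also in gene bodies), with bars for the standard error of the edgeR fit. No value passed the threshold in this fit without a replicate block, and STAT2 lies to the right in both regions.

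MYC peaks were few at these genes. A peak within 1000 bases of an annotated start site was found in both DMSO libraries for none of the 59 members, against 6.63% of 17096 genes, and in either library for 6 (10.2%), against 20.6%. The 6 were ISG15 (peak score 119), PSMB10 (84), PHF11 (80), ADAR (61) and BST2 (28) in DMSO library 1 and ISG20 (28) in DMSO library 3. The ISG15 peak (chromosome 1, 936016 to 936609, hg19) lay at the most upstream annotated start of the gene (936518). That is not the start of the ISG15 promoter shown above. The score is the authors' and is the peak's own. None of the 59 had a peak in any dTAG47 library, against 2.21% of genes. None of the 8 members that rose after dTAG47 had one in any library. Leaving out DMSO library 1 reduced the count to 1, and leaving out DMSO library 3 to 5. The E-box CACGTG, which MYC and its partner MAX bind, was in 6 of the 42 promoter windows (14.3%), against 7.26% of RefSeq promoters of the same length. The labels name MYC as the antibody and the deposited peak lists name HA, the tag on the MYC fusion.

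Open chromatin in DTMYC cells was mapped at the start sites of the members. An ATAC-seq peak within 1000 bases of a start site was present in all 6 libraries for 17 of the 59 members (28.8%), against 63.6% of 17096 genes, and in no library for 23 (39.0%), against 20.3%. The 17 included STAT2, IRF1, DDX58 and UBE2L6, which rose after dTAG47. ISG15 was counted among them through peaks near the same upstream start as its MYC peak. TMEM173 had no peak in any library, APOL2 had one in 2 DMSO and 2 dTAG47 libraries, RNF213 likewise, and IFI35 in 1 of each. IFIT2, IFIT3, IFITM2, HERC5 and OAS3 had none in any library. IFIT5 and TRIM21 had a peak in all 6, with scores of 59 to 151 and 71 to 204, and so had HERC6 with 89 to 347, although their mRNA was low or absent in DTMYC cells. No member had a peak in all libraries of one treatment and none of the other, against 0.117% of genes for dTAG47 and 0.0702% for DMSO. The lists held 28429 to 50983 peaks, and the read depth behind them is unknown.

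**Figure D4:**
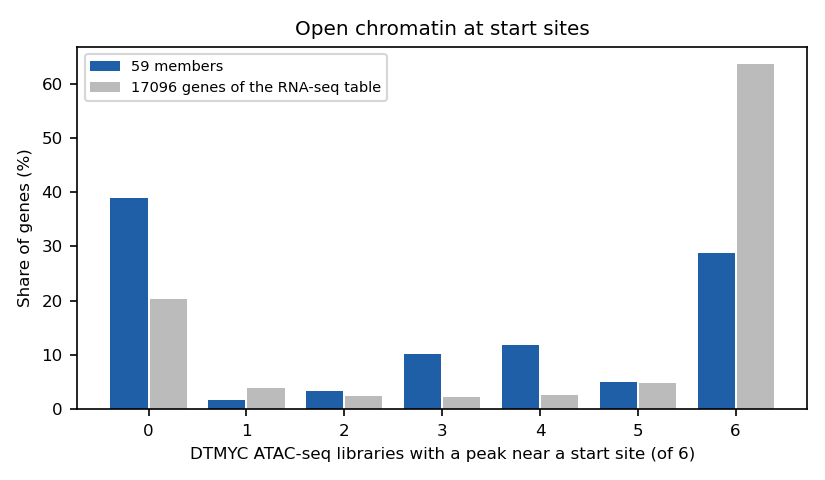
Share of the 59 members and of 17096 genes of the RNA-seq table (vertical axis, %) by the number of DTMYC ATAC-seq libraries, of 6, that have a peak within 1000 bases of a start site. Of the members 39.0% have a peak in no library and 28.8% in all 6, against 20.3% and 63.6% of genes.

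A wider list of 139 genes of the pathway was examined beside the members, of which 112 had an RNA-seq entry and 76 were tested, as 78 entries. The 5 interferon genes with an entry had at most 3 counts in any library. In DTMYC cells after dTAG47, 5 of 78 entries rose (6.41%) and 6 fell (7.69%), against 4.27% and 4.44% of all tested entries, with a median of 0.09. HELZ2, an interferon-induced helicase, stood at 5.16 to 6.43 CPM in DMSO and rose to between 9.58 and 9.99 CPM (log2 0.78 ± 0.14, edgeR adjusted p = 0.00638), and TRIM69 stood at 16.38 to 19.76 CPM and rose to between 23.98 and 24.39 CPM (0.44 ± 0.09, 0.011). TRIM14, a mitochondrial adaptor of RIG-I signalling, stood at 51.0 to 52.7 CPM in DMSO and fell to between 32.9 and 35.8 CPM (-0.60 ± 0.09, 0.00348), and ZNFX1 stood at 124 to 129 CPM and fell to between 96.4 and 101 CPM (-0.37 ± 0.07, 0.00878). No entry of the list passed in parental cells by edgeR, 10 had an unadjusted p under 0.05, and DESeq2 called 1, which was lower. Between the lines in DMSO 31 entries were higher (39.7%) and 25 lower (32.1%) in DTMYC cells, against 36.0% and 37.3% of all tested entries, with a median of 0.11, and in dTAG47 36 were higher (46.2%) and 27 lower (34.6%), against 37.4% and 38.9%. Of the 28 tested entries of the list for other interferon-induced genes, 8 were higher and 11 lower in DMSO, with a median of -0.09. TNFAIP3, a brake on inflammatory signalling, was higher at 35.1 to 37.1 CPM against 2.16 to 2.70 CPM in parental DMSO libraries (log2 3.92 ± 0.12, edgeR adjusted p = 3.3e-11). LGALS3BP (-3.16) and C19orf66 (-4.42) were lower, and SP110 had 1 count over the DTMYC DMSO libraries against 357 over the parental ones, a ratio of parental to DTMYC of 291 (exact 95% interval 52.0 to 11538). With 1 DTMYC count in DMSO and 3 in dTAG47, SP110 can have passed the filter only through parental libraries. The filter thus set its direction, and no p-value is given. Whether other lower entries of this list passed only that way was not examined.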

How the data were processed

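RNA-seq, PRO-seq, ATAC-seq and ChIP-seq were measured in 30 samples, grouped by their labels. The deposited RNA-seq and PRO-seq tables hold raw read counts per gene, and the PRO-seq table also holds a gene body signal density, which served only to derive gene body lengths. The deposited peak lists hold a score per peak, from which only presence and the score itself were used. The build was hg19 and the tools were cutadapt, STAR, Bowtie2, featureCounts, MACS2, DESeq2 and DiffBind, per the submitters' processing notes, which as used here give no roles or versions. Whether counting used strand is not given in the sources used here.

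Counts were fitted with edgeR 4.0.16 in R 4.3.3 (filterByExpr by group, TMM, quasi-likelihood F-test, two-sided, Benjamini-Hochberg adjustment over all entries tested, threshold 0.05). All 12 RNA-seq libraries shared 1 fit, and the 4 PRO-seq libraries had 1 fit for gene bodies and another for promoter-proximal regions. Standard errors (SE) are the log2 fold change divided by the root of the F statistic. The fits were tested on simulated data, where true log2 changes of 1 and 0.5 were recovered in 94% and 40% of changed genes for the DTMYC response (13401 genes) and in 83% and 10% for PRO-seq gene bodies (13397 genes). The simulation gave every gene the same spread and held no library that stood apart. These shares may therefore be too high for the real data. Start sites came from the GENCODE annotation on GRCh37. Alternatives were RLE size factors, no filter on low counts, DESeq2 1.42.0, a replicate block, fits of only the libraries compared, each library left out, other windows (500 and 5000 bases) and a peak score of at least 50.

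The members and lists were chosen with earlier results of these data known. Members past a dTAG47 threshold, the 4 largest differences between the lines in each direction (at least 5 CPM on average) and the most abundant member per exon length of each role were named, and others as the account needed. Of the pathway list, at most the 4 called genes of lowest adjusted p in each contrast were to be named, and the receptors and kinases were named after their values were seen. The IgG libraries were not used here, and 1 gene of the pathway list is not reported here. Reads of near-identical genes (IFITM), of related genes (IFIT) and of overlapping genes (PARP9 with DTX3L) may be split uncertainly.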

Additional observations from a re-analysis of the deposited data

Results flagged for a closer look

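For 5 genes the log2 response to dTAG47 differed between DTMYC and parental cells by the test of the difference itself (edgeR adjusted p under 0.05, n = 3 libraries per group). Among the members these were APOL2, with a response larger by 0.92 in DTMYC cells, and TMEM173, larger by 0.90. Among the wider pathway list they were HELZ2, larger by 0.87 (edgeR adjusted p = 0.0461), TRIM14 at -0.70 (0.0351) and ZNFX1 at -0.52 (0.0351). TRIM14 stood at 41.5 to 52.5 CPM in parental DMSO and 50.8 to 53.7 CPM in parental dTAG47 libraries, and ZNFX1 at 61.2 to 70.7 and 73.6 to 73.8 CPM. HELZ2 stood at 22.6 to 31.7 CPM in parental DMSO and 22.3 to 26.4 CPM in parental dTAG47 libraries, with overlapping groups. The calls of HELZ2, TRIM14 and ZNFX1 were lost with RLE size factors (edgeR adjusted p = 0.0605, 0.0546 and 0.0623) and without any 1 of the 6 DTMYC or 3 parental dTAG47 libraries, and those of HELZ2 and ZNFX1 also without the filter (0.0543 for both). All 5 used the third parental DMSO library, which stands apart.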

How the results depend on the processing

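Over 977 alternatives of 62 gene values, none changed sign, 878 kept their side of the threshold, 92 lost a call and 7 gained one. Counts of members that rose or fell were less stable. In the response difference (2 members) the count was 1 with RLE size factors and 7 with DESeq2, and for the parental response (1 member) it was 3 with DESeq2 and 0 with only the 6 parental libraries. With only the 6 DTMYC libraries, 14 members passed for the DTMYC response, and 4593 entries in all, against 1167. Over all entries the parental response (17) gave 7 with RLE, 310 with DESeq2 and 0 with only the parental libraries, and the response difference (159) gave 63 with RLE, 102 without the filter and 555 with DESeq2. PRO-seq called 2 genes without the filter in either region, and 67 in gene bodies and 2 in promoter-proximal regions with DESeq2. With a score of at least 50, 4 members had a MYC peak.

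Leaving out each library in turn gave 3 to 14 members for the DTMYC response, 0 to 11 for the parental response and 0 to 13 for their difference. The ranges over all entries were 329 to 3951, 0 to 2718 and 5 to 2417. The highest value came without parental DMSO library 3 for each count of members. Between the lines 31 to 36 members passed in DMSO and 29 to 34 in dTAG47, where 67.1% to 81.4% and 70.1% to 82.3% of all entries did. PRO-seq gave 5 to 44 genes in gene bodies and 1 to 5 in promoter-proximal regions, with no member among them, and MYC peaks were found at 1 to 5 members.

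Same-number correlations between RNA-seq groups ran from -0.20 to 0.37, with 0.32, 0.05 and 0.37 between parental DMSO and parental dTAG47. Correlations between different numbers were not computed, so whether the numbers pair these samples is not settled. The 2 PRO-seq pairs are too few to tell (0.64 in gene bodies and 0.35 in promoter-proximal regions). With a replicate block, the response difference passed for 1 member and 79 entries and the parental response for 5 entries. For PRO-seq the block gave 8 of 26 members (30.8%) in gene bodies, where 4360 genes in all passed (32.5%). DDX58, IRF1, MAVS, PML, RNF213, STAT2 and UBE2L6 were higher and PSMB10 was lower. In promoter-proximal regions it gave 3 of 21 members (14.3%), namely PHF11, RNF213 and STAT2, where 262 genes in all passed (2.56%). Depth limits the 12 low members in RNA-seq and the 33 not tested in PRO-seq gene bodies, whose highest count was 13.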

Other observations

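Several receptor chains and kinases upstream of the interferon response were higher in DTMYC than in parental cells in DMSO, and others were lower. Of all tested entries 36.0% were higher and 37.3% lower, and these genes were named after their values were seen. IFNAR1, a chain of the type I interferon receptor, had 55.6, 65.1 and 55.3 CPM in DTMYC DMSO libraries and 19.09, 17.23 and 36.99 CPM in parental ones (log2 difference 1.26 ± 0.23, edgeR adjusted p = 0.000293). The third parental library lay above the other parental ones. IFNAR2 (0.65), IFNGR1 (0.60), IFNGR2 (0.48), JAK1 (0.83) and JAK2 (0.90) were also higher, in the fit that includes the third parental library.

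TYK2, the kinase bound to IFNAR1, was lower at 88.9, 82.7 and 85.0 CPM in DTMYC DMSO libraries against 150, 148 and 127 CPM in parental ones (log2 difference -0.73, edgeR adjusted p = 5.4e-06). It rose in DTMYC cells after dTAG47 by 0.33 (edgeR adjusted p = 0.0251). IFNLR1, the specific chain of the type III interferon receptor, had 0.425, 0.273 and 0.459 CPM against 2.88, 2.91 and 2.96 CPM (-2.89, edgeR adjusted p = 4.86e-08). IL10RB, the other chain of that receptor, differed by 0.15 and did not pass (edgeR adjusted p = 0.297).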
